A study of Mus musculus with 28 samples.

Results

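The accessible chromatin of control Müller cells was described from 1 list of ATAC-seq peaks. In ATAC-seq, a transposase inserts sequencing adapters where DNA is not covered by nucleosomes, so that the places with many insertions mark open chromatin. All rows of the list on chromosomes 1 to 19 were taken, overlapping rows were merged into 1 region, and each region kept the summit and the values of its row with the highest signal. This gave 45198 regions out of 46189 in the control list over all chromosomes, and out of 111072 in the lists of both genotypes. A further 989 regions lay on X and 2 on Y. Positions refer to the mouse genome build mm10 (GRCm38), and genes to GENCODE M21.

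The study examined retinal cell types of db/db mice, which lack a working leptin receptor and become diabetic, and of non-diabetic controls. The ATAC-seq controls are labelled wild type in the sample records, while the methods give both wild-type and heterozygous db/+ mice, of both sexes, as controls. They were 6 months old. Müller cells were purified with magnetic beads, by removing CD11b+ microglia and CD31+ endothelial cells and then collecting CD29+ cells, and 100000 living cells entered each omni-ATAC reaction. The methods name some astrocytes in the CD29+ fraction, and the study also names photoreceptors as a contaminant that cannot be avoided. There were 2 control ATAC-seq samples. The list is attached to replicate 1, and the sources used here do not say whether it rests on that sample alone or on both. With 1 list there is no replicate check, so no test was made and no p-value is given. Intervals are 95% Wilson intervals of shares and cover counting error only, and neighbouring regions are not independent of each other. The read depth behind the list is unknown here.

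Müller cells are the main glia of the retina. They span its whole thickness, take up glutamate and potassium released by neurons, recycle neurotransmitter and retinoid precursors, and form the link between neurons and vessels. Open chromatin of a cell falls into promoters, where transcription starts and which are often open in many cell types, and into distal elements such as enhancers and insulators, whose opening differs more between cell types. Promoters rich in CpG are commonly open whether or not the gene is strongly transcribed in that cell, so an open transcription start site (TSS) by itself does not identify a cell type.

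Promoter sequences are shown first, because CpG and motif content differed between promoters with and without a region. Each window runs from upstream of an annotated start to 50 bases after it and is 300 bases long, on the gene's own strand (RefSeq, GRCm38.p6). Capitals mark 5 short strings, namely the GC box GGGCGG bound by SP and KLF factors, the CCAAT box bound by NF-Y, the ETS string CCGGAAG and the CRX/OTX string GGATTA, each on either strand, and the TATA box TATAAA on the sense strand. Zbed5, Pnpt1, Ruvbl1 and Med6 are shown because they have some of the strongest regions at any TSS, Glul and Kcnj10 because they are Müller cell genes, Cnga1 because it is a rod gene, and Alb because it is a liver gene without a region.
Zbed5 promoter, chr5:129895473-129895772, + strand: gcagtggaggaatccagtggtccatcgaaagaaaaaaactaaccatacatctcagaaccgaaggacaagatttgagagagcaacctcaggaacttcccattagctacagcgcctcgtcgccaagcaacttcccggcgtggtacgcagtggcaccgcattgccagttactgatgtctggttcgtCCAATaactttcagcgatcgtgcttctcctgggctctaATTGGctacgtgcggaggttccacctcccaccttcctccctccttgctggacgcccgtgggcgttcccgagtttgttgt
Pnpt1 promoter, chr11:29130494-29130793, + strand: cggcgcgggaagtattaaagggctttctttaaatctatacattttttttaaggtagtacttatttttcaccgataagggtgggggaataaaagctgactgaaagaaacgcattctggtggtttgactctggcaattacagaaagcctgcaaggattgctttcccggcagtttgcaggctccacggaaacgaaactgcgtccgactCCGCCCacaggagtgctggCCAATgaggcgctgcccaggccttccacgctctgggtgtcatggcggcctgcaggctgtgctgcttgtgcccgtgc
Ruvbl1 promoter, chr6:88465159-88465458, + strand: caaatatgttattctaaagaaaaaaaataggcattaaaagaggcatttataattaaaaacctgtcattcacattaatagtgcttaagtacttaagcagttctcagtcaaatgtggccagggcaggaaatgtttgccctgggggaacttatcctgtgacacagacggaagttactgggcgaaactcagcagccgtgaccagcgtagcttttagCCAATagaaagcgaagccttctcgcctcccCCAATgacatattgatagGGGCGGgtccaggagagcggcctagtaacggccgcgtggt
Med6 promoter, chr12:81594959-81595258, - strand: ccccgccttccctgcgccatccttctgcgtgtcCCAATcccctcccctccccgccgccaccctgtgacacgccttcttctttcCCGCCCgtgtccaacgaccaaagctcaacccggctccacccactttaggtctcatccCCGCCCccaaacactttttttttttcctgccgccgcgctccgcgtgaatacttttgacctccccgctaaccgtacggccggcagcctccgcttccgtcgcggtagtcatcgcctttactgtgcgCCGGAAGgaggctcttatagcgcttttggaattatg
Glul promoter, chr1:153899679-153899978, + strand: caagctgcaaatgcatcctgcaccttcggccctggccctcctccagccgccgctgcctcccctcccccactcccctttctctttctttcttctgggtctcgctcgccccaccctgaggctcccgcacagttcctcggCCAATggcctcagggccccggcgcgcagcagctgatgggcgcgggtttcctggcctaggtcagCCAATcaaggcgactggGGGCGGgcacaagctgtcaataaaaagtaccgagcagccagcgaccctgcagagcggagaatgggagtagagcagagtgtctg
Kcnj10 promoter, chr1:172340960-172341259, + strand: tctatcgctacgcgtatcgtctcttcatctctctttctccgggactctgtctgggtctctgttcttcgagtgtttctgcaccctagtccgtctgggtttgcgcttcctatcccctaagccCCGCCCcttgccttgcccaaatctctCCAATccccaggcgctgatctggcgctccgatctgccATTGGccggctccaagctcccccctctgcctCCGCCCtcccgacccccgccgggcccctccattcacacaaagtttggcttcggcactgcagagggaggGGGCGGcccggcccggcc
Cnga1 promoter, chr5:72642703-72643002, - strand: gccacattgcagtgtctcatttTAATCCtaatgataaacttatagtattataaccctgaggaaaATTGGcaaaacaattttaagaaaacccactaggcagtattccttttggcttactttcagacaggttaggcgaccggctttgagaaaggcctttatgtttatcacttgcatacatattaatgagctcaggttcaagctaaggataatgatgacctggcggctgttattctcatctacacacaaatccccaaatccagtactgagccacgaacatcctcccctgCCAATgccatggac
Alb promoter, chr5:90460620-90460919, + strand: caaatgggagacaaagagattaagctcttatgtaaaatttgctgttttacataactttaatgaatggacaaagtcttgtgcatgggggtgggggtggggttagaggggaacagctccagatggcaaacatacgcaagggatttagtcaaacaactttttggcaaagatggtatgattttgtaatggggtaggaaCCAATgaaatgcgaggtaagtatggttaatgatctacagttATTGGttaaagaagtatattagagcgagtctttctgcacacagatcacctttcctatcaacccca

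All 8 windows held at least 1 CCAAT box, whether or not there was a region. Zbed5 encodes a zinc finger protein of transposon origin, and its window had 2 CCAAT boxes, no GC box and 18 CpG. Pnpt1 encodes the mitochondrial RNA-processing enzyme PNPase, and its window had 1 CCAAT box, 1 GC box and 15 CpG. The window of Ruvbl1, an ATPase of chromatin remodelling complexes, had 2 CCAAT boxes, 1 GC box and 11 CpG. Med6, a subunit of the Mediator complex, had 1 CCAAT box, 2 GC boxes, 1 ETS string and 28 CpG. Glul encodes glutamine synthetase, which turns glutamate taken up by Müller cells into glutamine, and its window had 2 CCAAT boxes, 1 GC box and 17 CpG. Kcnj10 encodes the potassium channel Kir4.1 of Müller cells, and its window had 2 CCAAT boxes, 3 GC boxes and 21 CpG. Cnga1, a subunit of the rod cyclic nucleotide-gated channel, had 4 CpG, no GC box, 2 CCAAT boxes and 1 CRX/OTX string. Its window did hold a region, with a signal of 7.18, above 20.1% of regions. Alb (albumin), without a region, had 3 CpG, no GC box and 2 CCAAT boxes. None of the 8 windows held the TATA string. A match is a description of the letters only.

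The regions were short and covered little of the genome. Together they spanned 35 Mb, or 1.46% of the 2402.6 Mb of these chromosomes that the annotation spans. Width ran from 150 to 2947 bp with a median of 736.5 bp; the middle 50% of regions lay between 527 and 964 bp. Only 23 regions had 200 bp or less and 148 had more than 2000 bp. The signal, a fold enrichment in the authors' column, ran from 1.36 to 61.8 with a median of 10.6, with 10% of regions below 5.91 and 10% above 18.7. The score was at its upper limit of 1000 in 54% of regions. The −log10 p had a median of 136.9, and 25 regions had a −log10 q under 5.

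About as many regions had 1 summit row as had several. In all, 50.6% of regions (95% interval, 50.1 to 51%) consisted of 1 row, 30.9% of 2, 12.6% of 3, 4.16% of 4 and 1.85% of 5 or more, up to 9 rows in 4 regions. Rows of 1 region always shared the same start and end, and each row carries its own summit. Such rows are read here as several high points within 1 stretch of open chromatin. The spacing of their summits is not reported here. Width and place moved with the number of rows. Median width rose from 545 bp with 1 row to 1689 bp with 5 or more, and the share of regions within 1 kb of a TSS rose from 22.7% to 70%. The intergenic share went from 32.5% to 12.5%, while median signal was 10.2 with 1 row, 11.2 with 2 and 9.1 with 5 or more. Across all regions, the number of rows correlated with width (Spearman's rho = 0.74, n = 45198 regions of 1 list); signal correlated with width less closely (rho = 0.28).

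Of the 10 widest regions, 9 lay at promoters, and none was among the strong ones. Basp1, which encodes a membrane protein of growth cones, was nearest to the widest region, 2947 bp with 9 rows at chr15:25412111-25415057, with a signal of 5.05. The promoter of Trib1, a pseudokinase that steers protein degradation, also held 9 rows, over 2603 bp, with a signal of 5.71. Another region with 9 rows, 2457 bp wide with a signal of 8.97, lay 106.4 kb from the nearest coding start, that of Tes. Msl1 (2593 bp), Crlf2 (2580 bp), Atxn2 (2564 bp), Ppargc1b (2525 bp) and Kctd1 (2480 bp) were nearest to further wide promoters, and 1 of the 10 widest was intergenic, 2646 bp wide and 10.1 kb from Derl3. All 10 had a signal below the median of all regions.

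Introns and promoters held most regions. A region was assigned by its summit, first to a promoter (within 1 kb of any annotated TSS), then to an exon, an intron or intergenic DNA. Promoters took 33.1% of regions (32.7 to 33.5%) on 6.26% of the bases, a 5.29-fold excess over their share of bases. Introns took 35.8% on 40.2% of the bases (0.89-fold), intergenic DNA 27.7% on 50.1% (0.553-fold) and exons 3.35% on 3.36% (0.997-fold). Promoter regions were wider and stronger than the others. Their median width was 915 bp and their median signal 13.3, against 656 bp and 9.38 in introns and 658 bp and 10.4 in intergenic DNA, and 65.4% of them had more than 1 row against 42.4% and 40.8%. Of the 1515 exonic regions, 34.5% had their summit in a 3′ UTR, 33.3% in an exon of a noncoding transcript, 30.7% in coding sequence and 1.52% in a 5′ UTR. Intronic summits were also counted where the longest coding transcripts of genes place them in introns of 1 kind only, first or later. Of these 14049 summits, 29.7% lay in first introns, which hold 25.8% of such bases (1.15-fold).

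Around the TSS the summits were concentrated within 100 bp and mostly upstream. In all, 21.4% of regions lay within 100 bp of a TSS, 26.9-fold the share of bases there. The excess was 3.22-fold from 100 to 500 bp and 1.19-fold from 500 bp to 1 kb, and from 1 to 2 kb the share of regions, 5.07%, was close to that of bases, 5.15%. It was below that of bases in each farther class and reached 0.324-fold from 100 to 500 kb. Of the 14957 promoter summits, 67.2% (66.4 to 67.9%) lay upstream of the TSS and 122 on the TSS base itself. The median position was 27 bp upstream (value −27, middle 50% from −87 to 12), and the 100 bp just upstream of the TSS held 6801 summits, or 45.5%. Median signal fell from 14.9 within 100 bp to 11.4 from 100 to 500 bp and was lowest, 8.42, from 1 to 2 kb; farther out it was higher again, 9.96 from 10 to 50 kb and 10.7 from 100 to 500 kb.

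**Figure D1:**
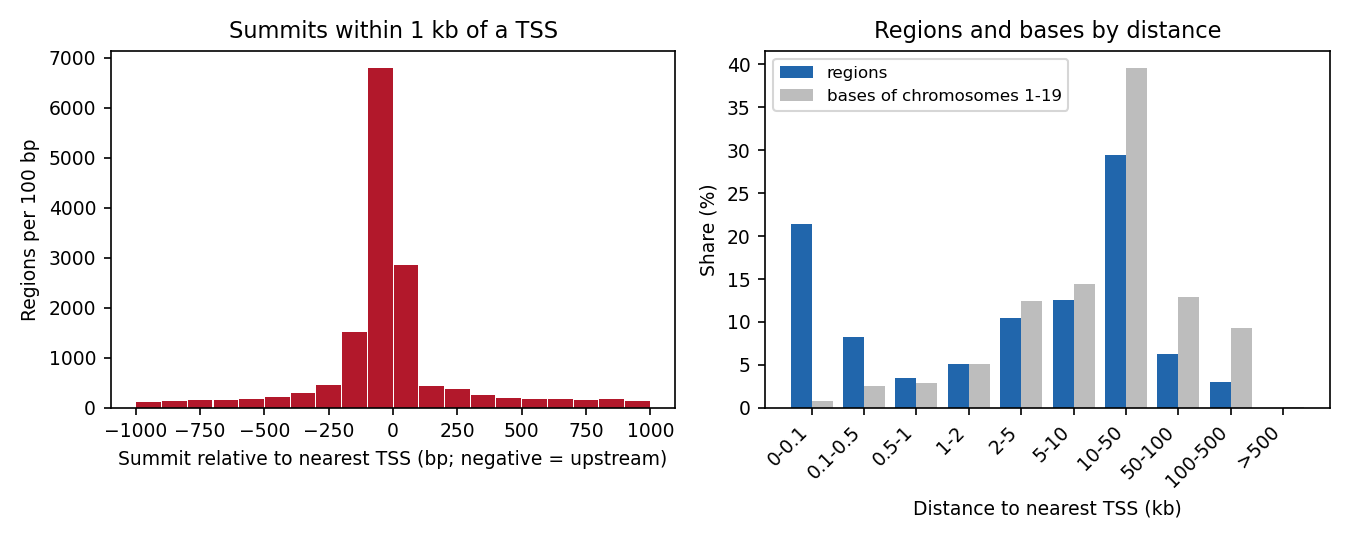
Left, number of region summits per 100 bp by position relative to the nearest TSS (bp, negative values upstream) for the 14957 regions within 1 kb. Right, share (%) of the 45198 regions (blue) and of all bases of chromosomes 1 to 19 (grey) in each class of distance to the nearest TSS (kb). The 100 bp upstream of the TSS hold 6801 summits, and the blue bar is above the grey one up to 1 kb only.

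More than 1 in 2 regions were distal. Over 5 kb from any TSS lay 23192 regions (51.3%), of which 12039 were intronic and 10408 intergenic; 9.26% were more than 50 kb away, 3.02% more than 100 kb and 5 regions more than 500 kb. Over all regions the median distance to a TSS was 5448.5 bp. The farthest, 606.7 kb from any TSS at chr1:114570621-114571371, had a signal of 11.3, and a second region on the same chromosome, 564.6 kb from a TSS, had 19.6, above 92% of all regions. Both had Cntnap5a, a neuronal adhesion gene, as their nearest coding gene, more than 1 Mb away. The other 3 had Gpc6, a glypican (2 regions inside its introns, signals 12.2 and 8.03), and Pom121l12 (12.4) as nearest coding genes.

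Place in the genome changed with the rank of the signal, but not in 1 direction throughout. The regions were divided into deciles by signal. Promoters made up 71.5% (70.1 to 72.8%) of the highest decile, with signals from 18.7, and 50.7% of the ninth. The share went down to 20.2% (19.1 to 21.4%) in the second decile and was higher again, 27.8% (26.5 to 29.1%), in the lowest decile, with signals up to 5.9. Introns went from 45.9% of the lowest decile to 10.8% of the highest. Intergenic regions had their largest share in the middle, 32.7% in the fourth decile, against 21.7% in the lowest and 16.3% in the highest. Median width rose from 534 bp in the lowest decile to 850 bp in the ninth and was 830 bp in the highest. The promoter regions of the lowest decile had a median width of 580.5 bp and a median −log10 p of 67.7, while those of the highest had 882 bp and 721.2. The widest decile of all regions was 66.6% promoters, but its median signal, 10.9, was below the 12.8 of the eighth width decile.

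**Figure D2:**
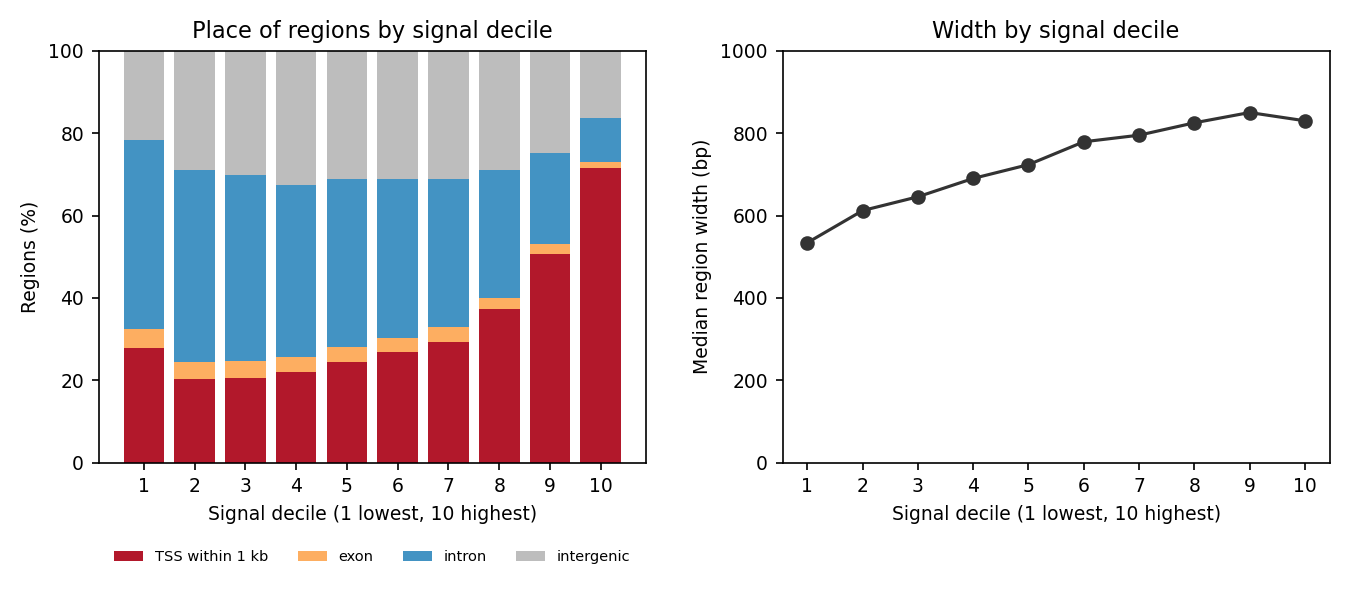
Left, share (%) of regions by place of the summit in each decile of the signal (1 lowest, 10 highest; about 4520 regions each). Right, median region width (bp) in the same deciles. Promoters (TSS within 1 kb) make up 20.2% of the second decile, 27.8% of the lowest and 71.5% of the highest, and median width runs from 534 to 850 bp.

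The 10 strongest promoter regions had signals of 33.7 to 38.3. The highest signal at a TSS, 38.3, was that of Cdc25c, a phosphatase that starts mitosis, followed by the zinc finger gene Zfp960 (37.8) and Zbed5 (35.7). Pnpt1 had 34.5, Ruvbl1 33.8, Cep128, a centriole gene, 33.8, Ncapg, a condensin subunit, 33.7, and Med6 33.7. A region of 34.8 was nearest to the coding gene 6720489N17Rik and 1 of 34 was at the pseudogene Gm11407. None of the Müller cell markers listed further on was among the 10.

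The highest signals of the list were at distal regions, and the strongest distal regions were narrow. The 20 distal regions with the highest signal had 28.8 to 61.8, and their median width was 455 bp, against 830 bp for the whole highest decile; 17 had a single row and 16 were intergenic. At this signal or above there were 155 regions in all, and the 131 promoter regions among them had a median width of 723 bp. The strongest region of the list, with a signal of 61.8, was 267 bp wide at chr2:69355469-69355735, 13 kb from the TSS of Abcb11, the bile salt export pump of the liver. Next came a region of 49.8 at chr5:60042765-60043155, 1765.8 kb from the nearest coding TSS, and a region of 49 at chr1:102628113-102628398, 2140.3 kb from the nearest coding TSS, that of Cdh20. A region of 44.3 lay 21.6 kb from Igf2bp3, an RNA-binding protein gene, and 1 of 42.3 lay 11.2 kb from Hic2, a transcriptional repressor gene. In all, 7 of the 20 were more than 100 kb from a coding TSS. No filter for repeats or poorly mappable DNA was applied here, and the sources used here do not say whether the list had one. What lies behind the highest signals was not tested. Within the highest decile, 0% of the 11 regions under 300 bp were promoters and 81.8% were distal, while 86.8% of those of 800 bp or more were promoters.

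The neighbours of the other strong distal regions were of many kinds. Rorb, the nuclear receptor gene needed for photoreceptor and inner retinal neuron development, had a region of 29.5 at chr19:19136826-19137298, 25.9 kb from its TSS, stronger than 99.7% of regions. Sfpq, a splicing factor gene, had 1 of 32 at chr4:127015371-127016049, 5.57 kb from its TSS. Phlda3, a p53 target that inhibits AKT, had 1 of 30.8 at a distance of 13 kb, Zfp13 1 of 32.7 inside an intron, and Spty2d1, a histone chaperone gene, 1 of 28.8 at a distance of 7.46 kb. The remaining named neighbours were Cd209a (33.8), Gphn, which encodes the synaptic scaffold gephyrin (33.8), Rtl10 (40.2), Epm2a (38.5), Nxph1 (34.9), Zfp960 (31), Galc (31.5), Gm5426 (42.2), 4930583I09Rik (32.9) and 1810024B03Rik (28.9). The nearest TSS is a neighbour, and these data do not link a region to the gene it acts on.

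Most protein-coding genes had an open promoter, and few other genes did. Of 20807 coding genes, 12445 (59.8%, 59.1 to 60.5%) had a region within 1 kb of a TSS, as had 24.1% of 9426 long noncoding RNA genes, 8.08% of 5704 small RNA genes and 2.46% of 11594 pseudogenes. Coding genes were nearest to 86.1% of promoter regions, with a median signal of 13.8, and long noncoding RNA genes to 9.44%, with a median of 10.7. Counted over the gene and 5 kb on each side, the median coding gene had 1 region and the mean was 1.85; 71.8% had at least 1 region. The ninety-ninth percentile was 13 regions. Among the 8362 coding genes without a region at a TSS, 2500 (29.9%) still had 1 or more elsewhere in that window.

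Longer genes had more regions but fewer per length. The number of regions correlated with gene length (Spearman's rho = 0.51 across 20807 genes, which share bases where they overlap). Genes under 5 kb had a mean of 0.697 regions, or 5.44 per 100 kb of gene and flanks, while genes over 500 kb had a mean of 11.7, or 1.33 per 100 kb. The share with an open TSS was 34.5% under 5 kb and 78.9% from 100 to 200 kb.

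The 20 genes with the most regions were long, from 276.5 to 4434.9 kb. The first 2 places, Gm20388 (210 regions over 4434.9 kb) and Fgfr2 (103 over 2960.9 kb), belonged to gene models in which 73 and 30 other coding genes start, so their counts are not those of a single gene. Gse1, which encodes a coiled-coil protein of the CoREST repressor complex, had 40 regions within 352.9 kb, 29 of them distal, and no other coding gene starts inside it. Its signals ran from 3.24 to 18.2 with a median of 8.59. Pde4d, a cAMP phosphodiesterase, also had 40, over 1503.5 kb, with a highest signal of 20.8 in an intron. Dab1, the adaptor of Reelin signalling, had 39 (34 distal), Nav2, a neurite growth gene, 39 (22 distal), and Msi2, an RNA-binding protein of progenitor cells, 33 (29 distal). Kirrel3 and Lsamp, both cell adhesion genes, had 30 each, Camta1 29, Celf4, an RNA-binding protein, 28, Phactr1 and Wwox 27, and Ank3, Ptprd and Trpm3 26. Dennd1a and Frmd4b had 25, Gm37240, a model with 7 other starts inside, 28, and a second annotated model of Arhgap26 28.

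The ranking by regions per length named other genes. Among coding genes with at least 10 regions, Cxxc5, a CpG-binding zinc finger protein, had the most, 11 regions or 26 per 100 kb, with signals of 2.68 to 7.67. Pxn, the focal adhesion protein paxillin, had 12 regions or 20.2 per 100 kb, among them a promoter region of 26.8 in its flank. Ccdc85c, a junction protein gene, had 14 regions, 13 of them distal, or 17.1 per 100 kb. Nfic and Nfix, of the nuclear factor I family, had 11 (15.8 per 100 kb) and 16 (14.5 per 100 kb). Dpysl2 (11 regions), Acot7 (14), Arvcf, Clip2, Rap1gap, Ahdc1, Osbpl5, Coro7 and Smad6 (10 each) had 12.7 to 15.7 per 100 kb, and Gm49380, a model with 4 other starts inside, 17.5. Smad6, an inhibitor of BMP signalling, was the gene of these 15 without a region at a TSS. Median signals were low in most of these genes, from 4.47 in Ccdc85c to 12.7 in Osbpl5.

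**Figure D3:**
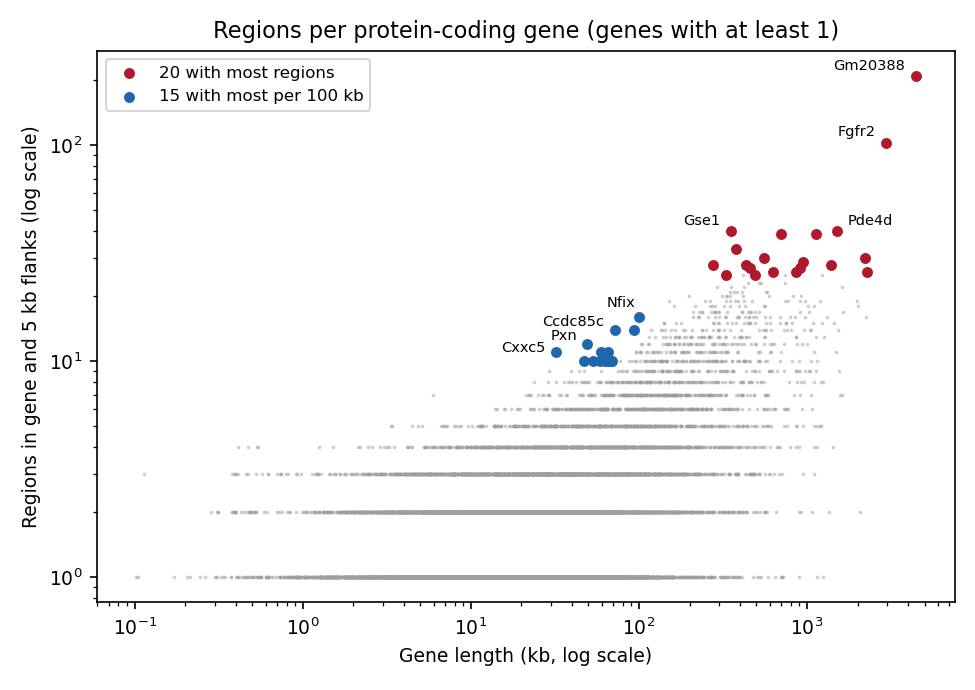
Number of regions in each protein-coding gene and 5 kb on each side against gene length (kb), both on log scales, for genes with at least 1 region. Red points are the 20 genes with the most regions, led by Gm20388 (210) and Fgfr2 (103), and blue points the 15 with the most per 100 kb among genes with at least 10, led by Cxxc5.

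When each distal region was given to the gene of the nearest coding TSS, 7632 coding genes had at least 1, and the 367 genes with 10 or more held 21.9% of all distal regions. Celf4 had 48, spread over 2523.8 kb, Zfp608, a zinc finger gene, 40, Tenm4, a teneurin adhesion gene, 32, Lsamp 31 and Gse1 30. Dab1, Kirrel3, Pde4d and Pik3c3 had 29 each, Ncam1 28, Kif2a, Map3k7, Sorcs1 and Tox3 25, and Adgrl2 24. Their distal regions differed in place. The 29 regions of Pik3c3, for example, lay at a median of 1062.8 kb from its TSS, and 26 were intergenic. The 30 of Gse1 lay at a median of 62 kb and were all classed as intronic. They lie within the span of the gene model Gm20388 (4434.9 kb), where no region can be classed as intergenic. The intronic class therefore does not place all of them in introns of Gse1.

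The label was checked against marker genes of Müller cells and of other cells. Of 15 Müller cell genes, 14 (93.3%) had a region at a TSS, and all 15 had at least 1 region in the gene and its flanks, 47 in total. The exception at the TSS was the transporter gene Abca8a, with 2 regions elsewhere. Promoter signals of these genes were moderate. Prdx6, an antioxidant enzyme, had 14.4, Clu, a secreted chaperone, 13.1, Glul 10.9 and Apoe, a lipid carrier, 9.96. Sox9, a glial transcription factor, had 9.69, Lhx2 9.55, Vim 9.24, Dkk3 8.97, Kcnj10 8.53, Rlbp1, the retinaldehyde-binding protein of the visual cycle, 8.5, and Car14 8.33. The water channel gene Aqp4 had 5.84, the glutamate transporter gene Slc1a3 4.78 and Hes1, a Notch target, 4.23. The median promoter of the list was at the 37.5th percentile of all regions, and the highest at the 74.5th. All promoter regions had a median signal of 13.3. By the same measure, open start sites were at 85.8 for pigment epithelium, 76.7 for microglial and 60.5 for outside-retina genes. Pericyte genes were at 48.6, cone genes at 41.7 and the other lists at 18.5 to 36.2. Signal at open start sites thus did not set Müller cell genes above other lists, several of which had few open genes.

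Strong regions in the flanks of these genes were not always their own. Car14, a carbonic anhydrase, had 1 of 23.5, but this was the promoter of Aph1a, and that of 21.6 at Kcnj10 was the promoter of Pigm. Slc1a3 had 1 of 12.7 at 13.8 kb from its nearest TSS. Sox9 was the nearest coding gene for 22 distal regions, and 21 genes had more. They ran from 9.19 to 641.5 kb from its TSS, between chr11:112139889 and chr11:113165797, 12 of them intergenic, with signals of 3.66 to 22.2 and a median of 9.91. The strongest, at chr11:112592416-112593110 and 189.4 kb from the TSS, was above 96% of regions. Aqp4 had 11 distal regions by the same rule, up to 18.7, Hes1 9, up to 19, and Slc1a3 and Dkk3 7 each. Apoe and Car14 had none.

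Some start sites of other retinal cells were open too. Rod genes had an open TSS in 11 of 15, and 13 of 15 had some region. Cngb1 had 12.6 at the TSS and 19.2 at its strongest region, Rom1 12.4, Rcvrn 11.7 and Sag 10.4. Gnat1, rod transducin, had 5.39 at its TSS and 4 regions. Pde6a and Rp1 had regions elsewhere, and Gngt1 and Pdc had no region. Of 9 cone genes on these chromosomes 5 had an open TSS, of 10 bipolar cell genes 4, of 8 amacrine cell genes 2 and of 10 ganglion and horizontal cell genes 4. The cone opsin gene Opn1sw had 17.7. Gad2 had 5.71, and Pou4f1, Pou4f2, Nefl, Chat and Slc32a1 had no region.

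Astrocyte genes were open in 5 of 6, with Aldh1l1, which the study treats as a gene of Müller cells as well, at 18.9, Pdgfra at 16.1 and Gfap at 7.75; Pax2, the marker that defines retinal astrocytes, had 2 regions but none at a TSS. Microglial genes had an open TSS in 2 of 11, among them P2ry12 (12.8), while Tmem119, Itgam and Trem2 had no region. Spi1, which encodes the myeloid factor PU.1, had an intronic region of 21.5 at 4.78 kb from its TSS. The strongest region in the span of Cx3cr1, of 20.1, lay in an exon at 7.18 kb from the nearest coding TSS and 1.51 kb from that of Gm49427. Endothelial genes were open in 5 of 9, pericyte genes in 2 of 7 and genes of the retinal pigment epithelium in 3 of 6. Cldn5, Rgs5 and Acta2 had no region. Of 15 genes of T cells, liver and heart muscle, 3 had an open TSS, namely Lck (17.9), Apob (10.3) and Ckm (12). For all coding genes the share was 59.8%. The Müller cell (93.3%), astrocyte (83.3%) and rod (73.3%) lists were above it. No intervals were computed for these lists, and with only 6 astrocyte and 15 rod genes their excess may be counting error. The study names astrocytes and photoreceptors as contaminants, but the cone list, also of photoreceptors, was below the share of all coding genes (55.6%). The lists are short, and 1 more open gene would put the cone, endothelial or pigment epithelium list above 59.8%. What share of the regions came from cells other than Müller cells was not tested.

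Gene classes taken by symbol ranged from nearly all to nearly none open, against 59.8% of all coding genes. Of 44 complex I genes, which encode subunits and assembly factors of the first respiratory complex, 43 (97.7%, 88.2 to 99.6%) had an open TSS; the exception was Ndufa4l2, a hypoxia-induced relative. Ribosomal protein symbols were open in 81 of 92 (88%), a pattern that also takes in 8 S6 kinase genes. Without these, 74 of 84 were open, and the 10 closed genes were Rpl3l, Rpl10l, Rpl39l, Rps27rt and 6 annotated with a -ps suffix, all tissue-restricted or retrocopy relatives of the ribosomal genes. Zinc finger (Zfp) genes were open in 317 of 385 (82.3%, 78.2 to 85.8%) and potassium channels in 39 of 92 (42.4%, 32.8 to 52.6%). Solute carriers were open in 217 of 358 (60.6%, 55.5 to 65.5%) and FOX genes in 20 of 41 (48.8%, 34.3 to 63.5%). Both of these intervals hold the share of all coding genes.

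SOX and NFI genes, both transcription factor families with glial members, differed in how far their loci were covered. Of 18 SOX genes 12 had an open TSS (66.7%, 43.7 to 83.7%), an interval that holds the 59.8% of all coding genes. Sox6 had the most regions, 15, and Sox5 had 14. Sox2, a progenitor and glial factor, was the nearest coding gene for 18 distal regions, up to 18.2. All 4 NFI genes were open (51 to 100%, an interval that also holds 59.8%). Their median was 18 regions: 20 in Nfia, 25 in Nfib, 11 in Nfic and 16 in Nfix. All coding genes had a median of 1, and coding genes of 200 to 500 kb, the length of Nfia (346.1 kb) and Nfib (415.6 kb), a median of 6. The median was 2 for coding genes of 50 to 100 kb, the length of Nfic (59.5 kb). It was 3 for those of 100 to 200 kb, the length of Nfix (100.5 kb). Within Nfix start 2 other coding genes and within Nfia 1. Most of those in Nfia (14 of 20) and Nfib (17 of 25) were distal, with highest signals of 16.9 and 15.9.

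At the other end stood receptor and structural genes of other tissues and 2 clustered developmental families. Olfactory receptors had an open TSS in 5 of 1128 genes (0.443%, 0.189 to 1.03%), vomeronasal receptors in 1 of 329 and bitter taste receptors in 0 of 35, which allows a share of up to 9.89% by the Wilson interval. Keratins and keratin-associated genes were open in 7 of 113, among them Krtcap2, which the symbol pattern takes in although it encodes a subunit of the oligosaccharyltransferase. Beta-defensins were open in 3 of 42 and Hox genes, which pattern the trunk, in 2 of 39 (Hoxa7 and Hoxb9). Clustered protocadherins were open in 4 of 57, and the 4 were Pcdhac1, Pcdhac2, Pcdhgc3 and Pcdhgc4, which are C-type isoforms. Protocadherins are neural genes, and 35 of the 57 had at least 1 region in the gene and its flanks, with a median of 3; their annotated spans overlap, so 1 region can count for several of them.

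**Figure D4:**
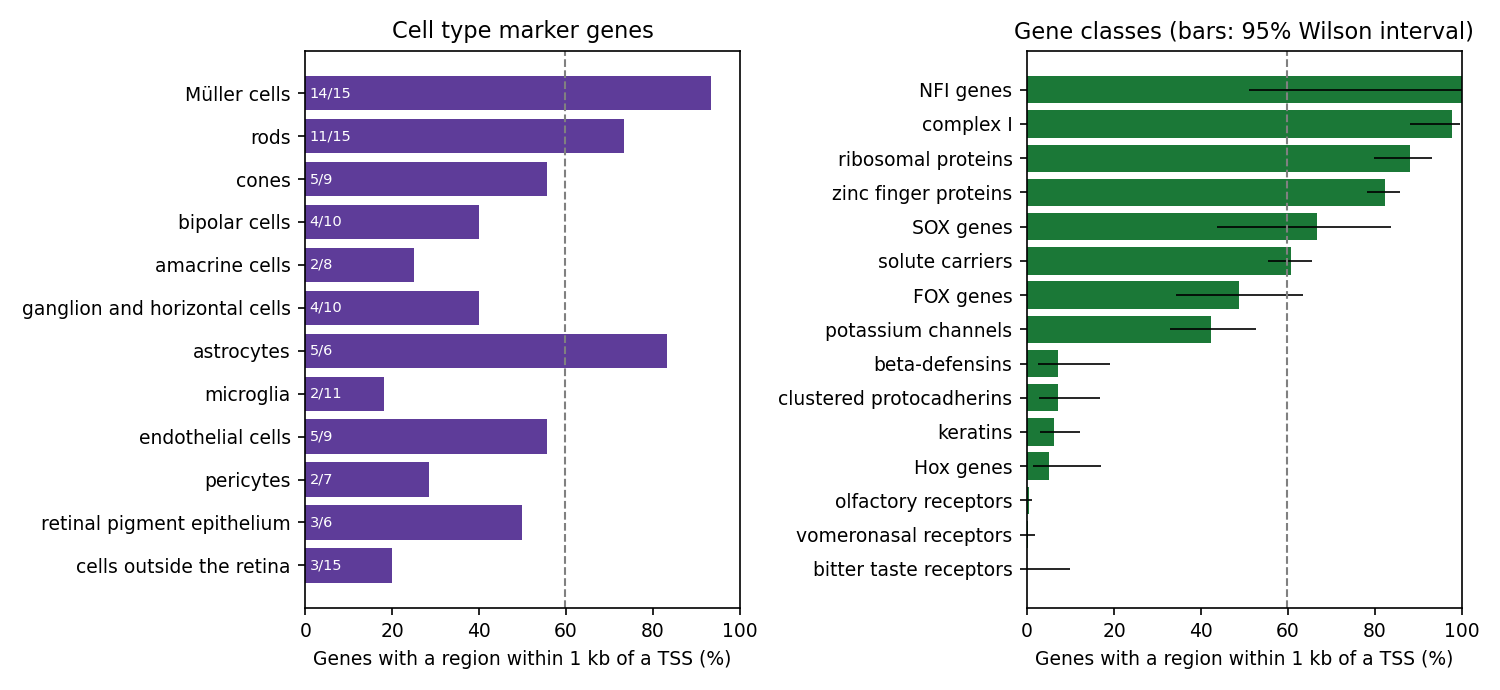
Share (%) of genes with a region within 1 kb of a TSS in lists of cell type markers (left, with the number of genes open and measured) and in gene classes taken by symbol (right, with 95% Wilson intervals). The dashed line is the 59.8% of all coding genes. Müller cell genes reach 93.3%, astrocyte genes 83.3%, rod genes 73.3% and microglial genes 18.2%. Complex I genes reach 97.7% and olfactory receptors 0.443%.

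Promoter sequence went with accessibility. RefSeq windows were found by symbol for 15687 of the 20807 coding genes, 19174 windows in all, so the shares hold for these windows. A summit lay inside 7972 of them (41.6%, 40.9 to 42.3%). These windows had a median of 23 CpG (middle 50%, 17 to 30) and 63% GC, while windows without a summit had 6 CpG (2 to 15) and 51.7% GC. Divided into quintiles by CpG, 2.53% of the poorest windows held a summit, then 12.1%, 52.4%, 71.1% and 69.8% of the richest. Among windows with a summit, CpG differed little with strength. The median was 19 for the lowest signal decile, 25 for the eighth and 23 for the highest.

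Of the 15 strings searched, 7 were more frequent in windows with a summit than in those without. Of the windows with a summit, 73.4% held the GC box GGGCGG, against 30.4% of those without and 48.3% of all windows. The ETS string CCGGAAG was in 21.5% against 5.45% (12.1% of all), the NRF1 site in 2.5% against 0.607% (1.39%) and the CREB/ATF string TGACGTCA in 4.06% against 1.15% (2.36%). AAGATGGC, bound by YY1, was in 5.29% against 1.53% (3.09%), the E-box CACGTG in 10.9% against 6.03% (8.04%) and CCAAT in 42.5% against 34% (37.5%). The 95% intervals of the shares did not overlap for any of these strings. The GC box, the ETS string, the NRF1 site, the CREB/ATF string and the E-box contain CpG themselves, and CpG count differed between the groups of windows, so the shares are not independent of the CpG counts above.

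The share with each of the 7 strings was higher in the highest signal decile (2661 windows) than in the lowest (227 windows). The amounts differed, and no intervals were computed by decile. With 227 windows, the small differences of the NRF1 site, the CREB/ATF string and the E-box may be counting error. CCAAT was in 54.1% of windows in the highest signal decile, 27.8% in the fifth and 33.5% in the lowest, and the ETS string in 27%, 13.9% and 10.6%. The GC box was in 76.2%, 70.7% and 63.9%, and the CREB/ATF string in 3.72%, 2.73% and 2.2%. The YY1 string was in 6.16%, 4.22% and 2.64%, the NRF1 site in 2.44%, 2.23% and 1.32%, and the E-box in 9.81%, 9.93% and 8.37%. The other 8 strings were less frequent in windows with a summit than in those without. Windows without a summit had a lower GC share (51.7% against 63%), and several of these strings consist mostly of A and T. The shares were not adjusted for this, so they do not show a depletion of particular factor sites. TATAAA was in 3.1% against 11.3% (7.89% of all), the CRX/OTX string GGATTA in 5.08% against 7.39% (6.43%), the SOX string ATTGTT in 4.26% against 11.8% (8.67%), the NFI half-site TTGGCA in 10.4% against 15% (13.1%) and the AP-1 string TGANTCA in 3.78% against 9.33% (7.02%). The TEAD string GGAATG was in 10.6% against 15.2% (13.3%), the homeodomain string TAATTA in 1.74% against 6.27% (4.39%) and the glucocorticoid receptor site in 0.238% against 0.625% (0.464%). Except for TATAAA, every string was searched on both strands, and CCAAT on the reverse strand can share the letters TTGG with the NFI half-site. Distal sequence was not searched here.

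**Figure D5:**
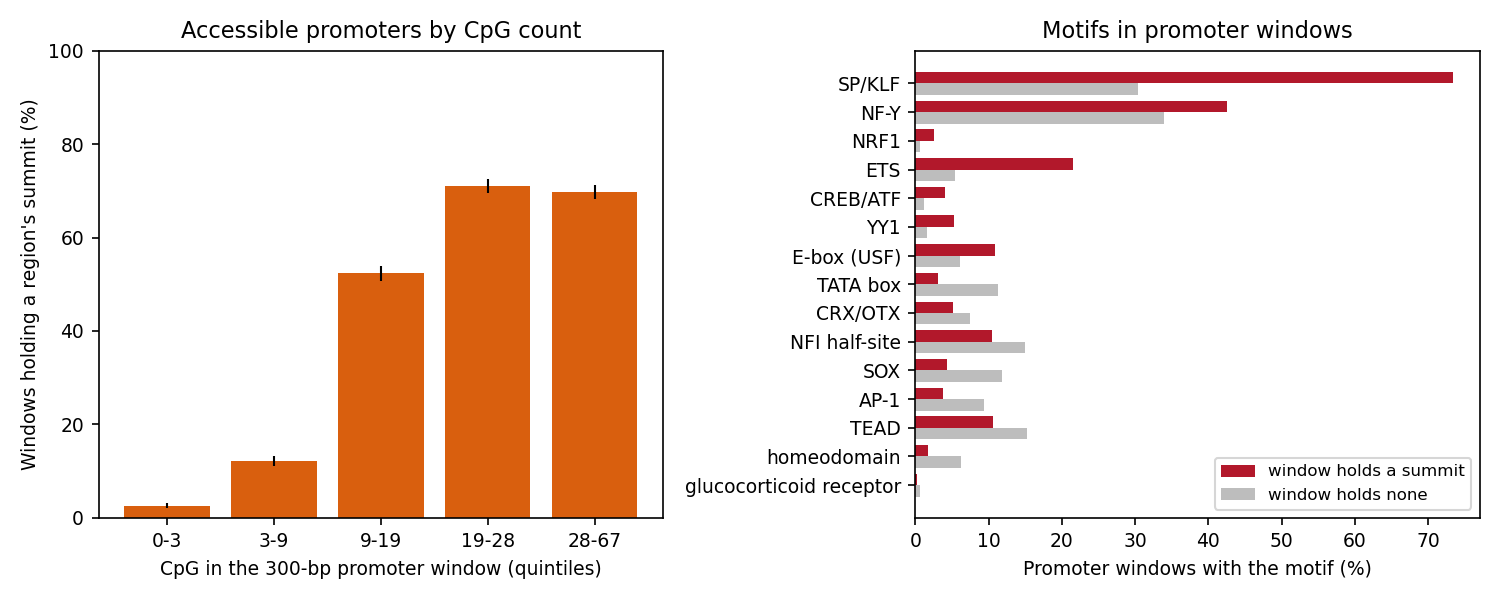
Left, share (%) of 300-bp promoter windows of coding genes that hold a region's summit, in quintiles of windows by CpG count (95% Wilson intervals). Right, share (%) of windows with a summit (red, 7972 windows) and without (grey) that contain each string. The share rises from 2.53% to 71.1% and is 69.8% in the richest quintile, and the GC box is in 73.4% of windows with a summit against 30.4% of those without.

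Regions were unevenly spread along the chromosomes. The median gap between neighbours was 19.9 kb (middle 50%, 7.68 to 49.4 kb), the longest was 4014.6 kb, and 155 gaps were over 1 Mb. By chromosome the density ran from 14.8 to 27.1 regions per Mb and followed the density of coding genes (Spearman's rho = 0.84 over 19 chromosomes of 1 list). Of 2413 windows of 1 Mb, 91 (3.77%) had no region and the median had 15. The window with the most, chromosome 10 from 80 to 81 Mb, had 102 regions and 54 coding starts. The 10 windows with the most held 72 to 102 regions, and in most of them genes were crowded as well. The exception was chromosome 8 from 120 to 121 Mb, with 73 regions, 46 of them distal, on 11 coding starts; 40 of the 73 had Gse1 as their nearest coding gene.

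Joining regions no more than 10 kb apart gave 8487 clusters, which held 50% of regions, and 31 clusters had 10 regions or more. The largest, 20 regions over 85 kb, lay around Cxxc5. A histone gene cluster on chromosome 13 with 14 histone gene starts followed with 18 regions over 69.1 kb, 1 of them distal. The cluster around Reep6, a rod trafficking gene, had 16 over 77.1 kb, with 7 coding starts inside. Those of Cirbp, Fosb and Pnpla2 had 15 each. That of Gnat1, Gnai2 and Slc38a3, at chr9:107626608-107685721, had 15 over 59.1 kb with signals up to 12.8. Ccdc85c (14, of which 13 distal), Mef2d (13) and Enho, the gene of the secreted peptide adropin (13), closed the list. The clusters of Cxxc5, Ccdc85c and Mef2d held 1 coding start each, which in the cluster of Mef2d was that of Rhbg.

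Several transcription factors that the study names around its accessibility data were looked up in the same list, after other values had been seen. Nr3c1, the gene of the glucocorticoid receptor, had 2 regions, both within 1 kb of a TSS, with signals of 5.66 and 8.73, and was the nearest coding gene for 3 intergenic regions between 73.7 and 105 kb away, with signals up to 12.1. Ctcf, the insulator protein gene, had a promoter region of 12.4 and 1 distal region of 18.4 at a distance of 14 kb. Cebpa had 1 region, of 9.14 at its promoter, and no distal one. Crx, which drives photoreceptor genes, had 4 regions, 1 of them at a promoter, with signals of 4.83 to 15.8. Its relative Otx2 had 1 region, of 4.11 in an intron, and Otx1 had none; they were the nearest coding genes for 3 and 2 distal regions. The Sox9 values are given above.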

How the data were processed

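ATAC-seq libraries were made from 100000 Müller cells each, size-selected to 100 to 1000 bp and sequenced as paired reads of 50 bp. Per the labels, the build was mm10; the peak caller, its threshold and any pooling of replicates are not given in the sources used here. The deposited columns are, for every peak, its position and summit, an integer score, the enrichment of reads as a ratio (fold, named signal here), and its p and q values as −log10. The deposited score starts at 540, which is also the value that the usual scaling of irreproducible discovery rates gives at 0.05, and the smallest deposited −log10 p is 2.00. The list held 81757 rows, of which 79824 on chromosomes 1 to 19 were used. Replicate 2, the db/db list (counted only) and the RNA-seq samples were not analysed here.

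Rows that share at least 1 bp were merged and the row with the highest signal kept. Distances run from its summit to the nearest TSS of any GENCODE M21 transcript. Promoter means within 1 kb, distal more than 5 kb, and regions of a gene lie in its span or 5 kb to either side. Python 3.11.15, numpy 2.4.6, scipy 1.17.1, pandas 2.3.3 and matplotlib 3.10.9 were used. Merging, distances and features were tested on simulated data against direct versions. Promoter windows and their sequences came from RefSeq (GRCm38.p6). With 1 list, no test was made; shares have 95% Wilson intervals. Alternatives were a stricter q value, unmerged or more widely merged rows, sex chromosomes, other start sites, distances, flanks, reference points and ranks.

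Named were the 20 coding genes with most regions (ties by symbol), the 15 with at least 10 regions and most per 100 kb, the 15 nearest to most distal regions, the 20 strongest distal, 10 strongest promoter, 10 widest, 10 most-rowed and 5 farthest regions, the 10 fullest windows of 1 Mb, marker genes and gene classes. The regions and lists were chosen with earlier results of these data known. Values of some listed genes are not reported here.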

Additional observations from a re-analysis of the deposited data

How the results depend on the processing

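The 10 summary results were recomputed under 57 alternative settings; 27 values stayed within the 95% interval of the reported value or, for counts, within 1.5 times of it, and 30 did not. A −log10 q of at least 5 left 45173 regions and moved 1 result, the share of regions with more than 1 row (43.8%). Counting every row gave 79824 rows, a median width of 879 bp, 39.7% within 1 kb of a TSS, 32.4% in introns, 24.8% intergenic and a median of 2 per coding gene. Merging rows up to 500 bp apart gave 755 bp and 51% with more than 1 row. With starts of protein-coding transcripts only, 27.4% were within 1 kb, 38.5% in introns, 29.1% intergenic, and 67.8% of the highest decile were promoters. A promoter distance of 500 bp gave 29.7%, 37.8% and 28.5% for promoters, introns and intergenic DNA and 57.2% of coding genes open; 2500 bp gave 40.2%, 31.5% and 25.9%, 73.2% promoters in the highest decile and 62.6% of genes open. Any base of the region in place of the summit gave 34.9% promoters and 60.7% of genes, and the first base of the gene as its only start 54.9% of genes. Without flanks the median coding gene had 0 regions, and with 50 kb flanks 4. Ranking by −log10 p gave 89.4% promoters in the highest decile and kept 6 of the 20 strongest distal regions; requiring more than 50 kb from a TSS kept 2. The cause was not tested beyond what each setting changes by construction. Introns and promoters exchanged places as the largest class with the 2500 bp distance and with every row counted. No paired analysis was possible because the result comes from 1 list and no test. The read depth is unknown, so a gene without a region may be closed or below detection. Purity of the cells was not measured by this list.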

Other observations

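The −log10 p ranked some regions very differently from the signal; these were looked at after the values had been seen. The 10 regions with the highest −log10 p had 2287.1 to 9062.4, where the ninety-ninth percentile of all regions was 1305.6. The highest, 9062.4, belonged to an intergenic region of 488 bp at chr12:97061369-97061856, 1181.9 kb from the nearest coding TSS, that of Galc, with a signal of 31.5. Neighbouring regions within the gene span of Myo3a, at chr2:22588599-22590224 and chr2:22587516-22588333, had 6473.3 and 3961.8, although their signals were 8.92 and 6.73, above only 36% and 16.1% of regions. They overlapped the annotated pseudogenes Gm13339, Gm13340 and Gm13341. The strongest distal regions near Abcb11, G6pd2 and Gm5426 also had 5827.2, 5208.2 and 3220.4, and the region at the pseudogene Gm11407 had 2896.1.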
